A study of Homo sapiens with 6 samples.

Results

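The genes described here are the axon guidance ligands and receptors: semaphorins, plexins, neuropilins, ephrins, Eph receptors, slits, ROBO receptors, netrins and the netrin receptors DCC and UNC5. The rule that chose them uses the gene symbol and no measured value, although the set was proposed with earlier results of these data known. They were 69 of the 31814 rows of the deposited expression table. The 69 rows stand for 68 gene symbols, since EFNA3 has a pair of rows. RNA came from H69, a human cell line grown in RPMI medium with serum, for which the labels state no tissue and no genetic change. The name H69 has been used for more than one line. The vehicle group (3 libraries) received the solvent DMSO, and the treated group (3 libraries) received trichostatin A (TSA), an inhibitor of histone deacetylases, at 1 µM, both for 24 h. One label tag of the treated group says HSA where the design text has TSA, the name used here. All 6 libraries are of 1 line. The labels do not tell whether each was a culture of its own, and the p-values below therefore measure the spread between libraries, which may be technical.

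Axon guidance molecules are cues and receptors that steer growing axons by attraction or repulsion. Semaphorins act through plexins, with neuropilins as co-receptors for most secreted semaphorins. Ephrins are held in the membrane and bind Eph receptor tyrosine kinases on a neighbouring cell, with signals passing into both cells, while slits repel through ROBO receptors and netrins act through DCC and UNC5. The same families act outside the nervous system in epithelia, vessels and tumours, where they bear on cell sorting, adhesion and migration.

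Levels are in TPM, a unit scaled by gene length and by library total, so that genes can be compared within a library. The number of sequenced reads behind each value was recovered from the TPM values as a lower bound, which summed to between 22533307 and 26148651 in the 6 libraries. Neuroendocrine markers were present, with 7 of 8 at 1 TPM or more in every vehicle library and the same number in every TSA library, while their summed level was 1302 to 1553 TPM over the vehicle libraries and 647 to 764 TPM over the TSA libraries. Of 6 bile duct markers 4 reached that level in vehicle and 3 in TSA, KRT19 and EPCAM among them. Of the 6 endothelial markers found, cells in which many of these families also act, 0 reached 1 TPM in either group, and their summed level was 0.481 to 0.765 TPM in vehicle and 0.627 to 0.710 TPM in TSA, with KDR and EMCN at 0 in all vehicle libraries. The 6 fibroblast markers summed to 0.211 to 0.906 TPM in vehicle and 5.34 to 7.20 TPM in TSA, most of it COL1A1, with COL3A1, PDGFRB, COL1A2, LUM and DCN at 0 in vehicle. The 5 leukocyte markers found summed to 5.05 to 6.43 and 7.36 to 10.1 TPM, most of it CD14 and CD68. The part of such cells in the results was not tested. Libraries also differed in long transcripts: over the tested genes in the highest quartile of annotated transcript length, the median deviation from the group mean on the log2 scale was 0.24 in TSA library 1 and −0.17 in vehicle library 2, and mitochondrial genes took 4.97% to 12.3% of TPM in vehicle and 7.65% to 16.9% in TSA.

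The promoters shown are those of the 4 members that rose most and the 4 that fell most on the log2(TPM + 1) scale, of those whose promoter RefSeq lists, so that the genes which moved furthest in opposite directions can be read side by side. On a ratio of means the receptors that start near 0 would lead the rises, among them EPHA2, EPHA1 (137-fold) and EPHB6 (124-fold), against 9.96-fold for EFNA3. Each promoter is the 250 bases before a RefSeq start site on GRCh38.p14, printed 5′ to 3′ on the strand of the gene. That build is later than hg19, which the submitters' processing notes name. A single start site was taken for each gene, the listed one nearest the 5′ end of the RefSeq gene. Which start these cells use was not tested. Capitals mark GGGCGG (the GC box), CAGCTG (an E-box) and TGACTCA (an AP-1 site), searched on both strands. Matches of the GC box can overlap each other, as in PLXNC1, and none overlapped another motif. EFNA4, EPHA1, EFNA3 and EPHB3 rose, and PLXNC1, EFNA2, PLXNB1 and PLXNA2 fell.
EFNA4 (chr1:155063490-155063739, + strand): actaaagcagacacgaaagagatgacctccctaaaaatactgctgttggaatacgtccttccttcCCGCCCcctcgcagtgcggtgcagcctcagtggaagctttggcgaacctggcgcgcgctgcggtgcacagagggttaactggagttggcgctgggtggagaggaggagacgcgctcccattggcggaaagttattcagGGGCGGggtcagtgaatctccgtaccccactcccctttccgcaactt
EPHA1 (chr7:143408857-143409106, − strand): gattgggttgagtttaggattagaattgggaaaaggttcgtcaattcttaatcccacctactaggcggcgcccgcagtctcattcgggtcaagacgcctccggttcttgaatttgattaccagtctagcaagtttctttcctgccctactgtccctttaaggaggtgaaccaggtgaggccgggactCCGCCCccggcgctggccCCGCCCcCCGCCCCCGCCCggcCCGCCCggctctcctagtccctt
EFNA3 (chr1:155078587-155078836, + strand): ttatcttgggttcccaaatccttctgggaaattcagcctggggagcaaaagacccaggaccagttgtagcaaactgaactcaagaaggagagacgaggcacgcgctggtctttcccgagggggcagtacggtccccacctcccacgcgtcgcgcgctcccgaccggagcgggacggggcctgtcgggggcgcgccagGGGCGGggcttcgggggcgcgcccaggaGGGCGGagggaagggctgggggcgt
EPHB3 (chr3:184561535-184561784, + strand): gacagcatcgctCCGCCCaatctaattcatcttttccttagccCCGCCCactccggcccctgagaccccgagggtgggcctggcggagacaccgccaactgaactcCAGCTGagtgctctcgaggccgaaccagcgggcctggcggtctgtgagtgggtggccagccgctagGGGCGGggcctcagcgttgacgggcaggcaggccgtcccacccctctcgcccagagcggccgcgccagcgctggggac
PLXNC1 (chr12:94148327-94148576, + strand): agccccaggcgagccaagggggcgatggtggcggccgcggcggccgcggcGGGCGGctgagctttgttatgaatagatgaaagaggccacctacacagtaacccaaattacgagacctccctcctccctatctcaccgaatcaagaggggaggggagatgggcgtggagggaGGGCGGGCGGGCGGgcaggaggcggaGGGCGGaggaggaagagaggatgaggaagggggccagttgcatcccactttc
EFNA2 (chr19:1285623-1285872, + strand): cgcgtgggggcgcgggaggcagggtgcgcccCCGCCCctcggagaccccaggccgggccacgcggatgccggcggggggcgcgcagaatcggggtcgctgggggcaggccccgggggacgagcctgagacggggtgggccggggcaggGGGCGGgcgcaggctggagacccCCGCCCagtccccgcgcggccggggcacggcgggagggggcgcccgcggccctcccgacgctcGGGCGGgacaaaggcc
PLXNB1 (chr3:48430087-48430336, − strand): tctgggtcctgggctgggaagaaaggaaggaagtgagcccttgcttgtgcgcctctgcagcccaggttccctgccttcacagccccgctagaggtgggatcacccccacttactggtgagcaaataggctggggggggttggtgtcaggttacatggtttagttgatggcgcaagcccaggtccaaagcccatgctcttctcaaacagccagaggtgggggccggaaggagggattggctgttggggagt
PLXNA2 (chr1:208244385-208244634, − strand): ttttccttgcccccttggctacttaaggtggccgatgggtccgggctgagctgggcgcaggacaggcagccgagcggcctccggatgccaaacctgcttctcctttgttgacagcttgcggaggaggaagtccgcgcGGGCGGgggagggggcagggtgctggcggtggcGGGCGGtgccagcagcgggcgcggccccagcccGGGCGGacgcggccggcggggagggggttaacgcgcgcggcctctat

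The GC box appears in both directions of change. It is present 2 times in EFNA4, 5 times in EPHA1, 2 times in EFNA3 and 3 times in EPHB3, and 5 times in PLXNC1, 4 times in EFNA2, 3 times in PLXNA2 and 0 times in PLXNB1. A promoter was listed for 58 of the 68 genes. The GC box was found in 17 of 18 promoters of genes that rose and 12 of 18 of genes that fell, in 10 of 11 of members without a call and in 4 of 11 of members under the filter, against 42.2% of the promoters of all 27305 listed genes. The E-box CAGCTG was found in 4 of 18 promoters of genes that rose (SEMA7A, EPHA3, EPHB3 and EPHB6) and 0 of 18 of genes that fell, in 0 of 11 without a call and 2 of 11 under the filter, against 13.8% of all promoters. TGACTCA was found in 0 of the 58, against 4.15% of all. The median share of G and C was 64.4% in genes that rose and 66.8% in genes that fell, against 57.6% over all promoters. These matches are descriptions of letters, with no test.

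The comparison asked which of these genes changed after 24 h with TSA. Ephrins gained most: EFNA3, EFNA4, EFNB1 and EFNB3 rose, and so did EPHB3 and a set of Eph receptors that vehicle cells held at or near 0. Plexins of the vehicle cells mostly fell, among them PLXNC1, PLXNB1 and PLXNA2, while PLXNA3 rose 5.19-fold in mean TPM. The slit receptor ROBO1, the member with the highest level in vehicle, fell together with ROBO2, SLIT1, DCC and UNC5A. Of the 69 rows 57 were tested, having reached 1 TPM in at least 3 of the 6 libraries. TSA raised 22 of those and lowered 20, and the other 15 missed the threshold (limma on log2(TPM + 1), Benjamini-Hochberg adjusted p under 0.05 over all 17596 tested genes). Over all tested genes 62.2% were called, 28.0% higher and 34.2% lower. With a change of at least 2-fold on that scale 21 members were higher and 17 lower, against 15.5% and 19.7% of all tested genes (35.2% in either direction). In 43 of the 57 the TSA and vehicle values did not overlap, against 67.0% over all tested genes. The median log2 fold change of the 57 was 0.02 against −0.10 over all tested genes, and −0.08 without the second EFNA3 row, whose reads are shared. This is bulk RNA, in which fewer cells of a type and less RNA per cell cannot be told apart.

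Some members entered the test through their TSA values alone. The vehicle mean of 9 tested members was under 1 TPM, and each of them entered through its 3 TSA libraries, a filter that favours a difference. All 9 were called higher, against 1152 of all 1427 tested genes at that vehicle level (80.7%). The other 48, with a vehicle mean of at least 1 TPM, split into 13 higher, 20 lower and 15 without a call, with a median log2 fold change of −0.32. Over all 16169 tested genes at that vehicle level 3777 rose and 6013 fell, and their median was −0.20. Members at 1 TPM or more in every library of a group numbered 47 in vehicle and 56 in TSA, of which 46 were the same rows. At 5 TPM the order was the other way, with 38 in vehicle and 30 in TSA. The 10 at 1 TPM or more in every TSA library but not in every vehicle library were SEMA3G, SEMA7A, PLXNB3, NRP2, EPHA1, EPHA2, EPHA3, EPHB6, ROBO3 and UNC5D. SEMA3D was at 1 TPM or more in every vehicle library but not in every TSA library.

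**Figure D1:**
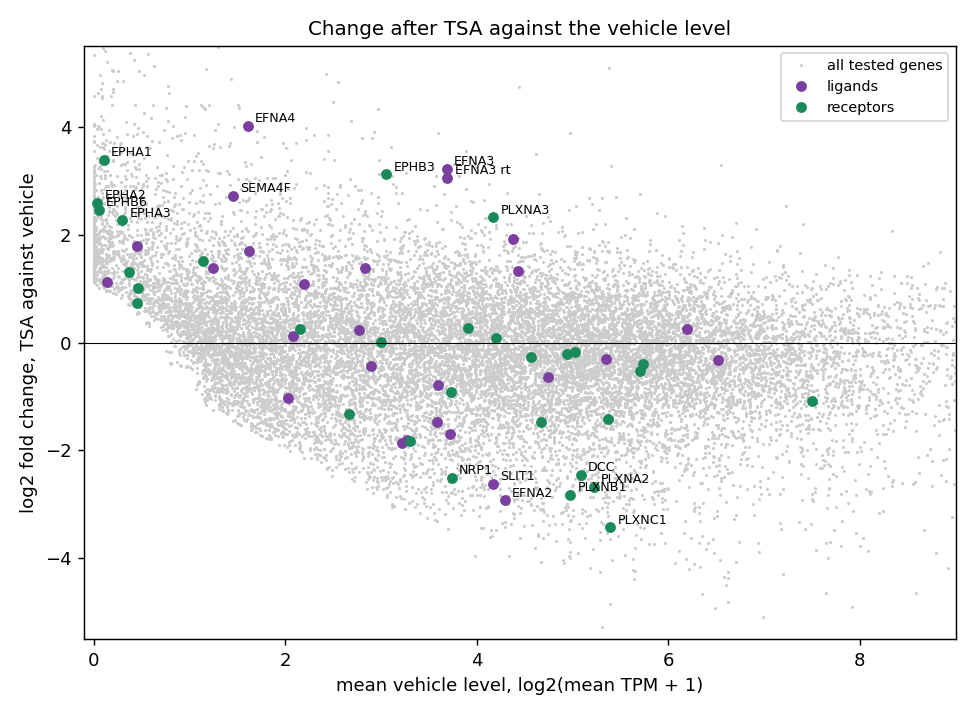
Each tested gene by its mean vehicle level, log2(mean TPM + 1), and its log2 fold change in TSA against vehicle, with axon guidance ligands in purple, receptors in green and all tested genes in grey (points beyond the axes are not drawn, and EFNA3 rt is the EFNA3 readthrough row). Receptors at the left edge rose from near 0, EFNA4 lies highest at 4.02, and PLXNC1 lowest at −3.42.

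Ephrins were the family with the greatest gain. All 9 rows were at 1 TPM or more in every library, so the filter chose none of them, and 5 rose, 2 fell and 2 did not pass the test, with a median log2 fold change of 1.34. Over the 8 ephrin genes, leaving out the second EFNA3 row, which shares exons with others, 4 rose, 2 fell and 2 did not pass, and the median was 0.79. The summed level of the 9 rows was 174 ± 17.3 TPM in vehicle and 499.5 ± 30.1 TPM in TSA (mean ± SD, n = 3 each). Without that row the sums were 162 ± 16.5 and 395 ± 23.2 TPM.

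EFNA3 (ENSG00000143590.9), a membrane-anchored ligand of EphA receptors, was at 9.28, 14.04 and 12.3 TPM in vehicle libraries 1, 2 and 3 and 106, 124 and 125 TPM in TSA libraries 1, 2 and 3. Its log2 fold change was 3.23 (SE 0.16, adjusted p 1.4e-05). EFNA4 (ENSG00000243364.3), another ligand of that class, was at 1.42, 3.28 and 1.45 TPM in vehicle against 35.8, 54.1 and 52.9 TPM in TSA, with a log2 fold change of 4.02 (SE 0.28, adjusted p 4.4e-05). The lowest TSA value of each was over 7 times its highest vehicle value. EFNA4, EFNA3 and EFNA1 lie next to each other on chromosome 1, and the third of them, EFNA1, was at 6.07, 5.33 and 6.01 TPM in vehicle against 6.56, 7.82 and 6.67 TPM in TSA. The groups of EFNA1 did not overlap, but its log2 fold change of 0.24 (SE 0.14, adjusted p 0.18) did not pass the test, and the difference between it and its neighbours was not tested. The second EFNA3 row (ENSG00000251246.1) is a readthrough gene model whose exon bases lie 81.9% in EFNA3 and 18.1% in EFNA4 in GENCODE 29. Its reads cannot be told from theirs, and its values, 9.34, 14.97 and 11.5 TPM in vehicle against 97.2, 106 and 111 TPM in TSA, repeat those of EFNA3 and are no further evidence.

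The 3 ephrin-B genes encode transmembrane ligands of EphB receptors. EFNB3 was at 18.03, 18.5 and 22.97 TPM in vehicle against 72.7, 78.5 and 80.3 TPM in TSA, a log2 fold change of 1.92 (SE 0.12, adjusted p 2.8e-05). EFNB1 was at 20.3, 21.2 and 20.3 TPM in vehicle against 50.5, 55.3 and 54.8 TPM in TSA, a log2 fold change of 1.34 (SE 0.086, adjusted p 3.4e-05). Both were higher in every TSA library than in any vehicle library, and the vehicle libraries of EFNB1 lay within 1 TPM of each other. EFNB2, the ephrin with the highest vehicle level, was at 67.7, 65.02 and 84.2 TPM in vehicle against 91.5, 82.8 and 83.7 TPM in TSA, and the groups overlapped. Its log2 fold change was 0.25 (SE 0.12, adjusted p 0.11), and it passed the test with median-of-ratios scaling (adjusted p 0.038), quantile scaling (0.032), a test of recovered reads (0.023), length trends removed (0.0082) and without vehicle replicate 3 (0.027).

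Not all ephrin genes followed. EFNA2 was at 14.4, 21.2 and 20.2 TPM in vehicle against 1.28, 1.31 and 2.11 TPM in TSA, a log2 fold change of −2.93 (SE 0.21, adjusted p 4.9e-05), which put the most abundant ephrin-A of vehicle cells at the bottom of its family in TSA. EFNA5, known as a repellent in the visual system, was at 10.6, 9.53 and 12.8 TPM in vehicle against 3.48, 3.29 and 3.07 TPM in TSA, a log2 fold change of −1.48 (SE 0.15, adjusted p 2.2e-04). Ephrin-A genes, without the readthrough row, summed to 49.3 ± 6.51 TPM in vehicle and 178 ± 21.5 TPM in TSA (with it, 61.2 ± 8.99 and 283 ± 28.2 TPM), while ephrin-B genes summed to 113 ± 12.8 and 217 ± 2.09 TPM.

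**Figure D2:**
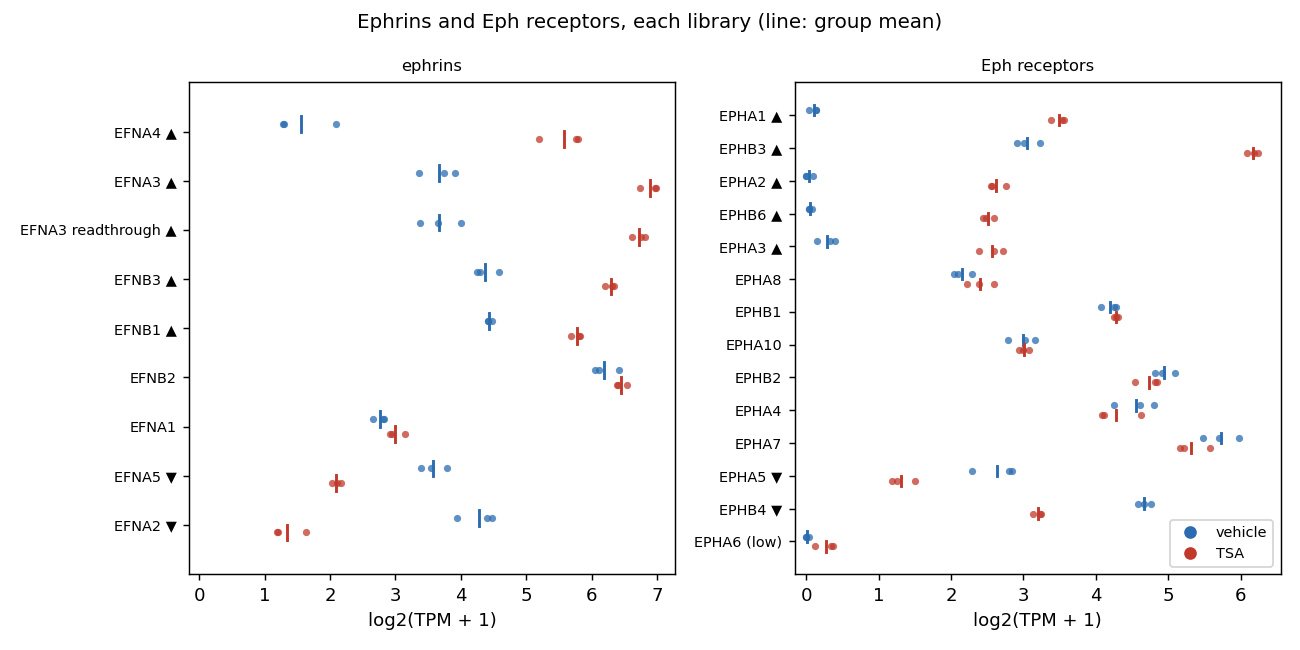
Level of each ephrin (left) and Eph receptor (right) in each library as log2(TPM + 1), with vehicle libraries in blue and TSA libraries in red, vertical lines at the group means, and triangles for genes called higher or lower ("low" marks a gene under the filter). EFNA3, EFNA4 and EPHB3 lie far to the right in TSA, and EPHA1, EPHA2, EPHA3 and EPHB6 leave the left edge, while EFNA2 and EPHB4 move left.

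Of 14 Eph receptor genes 13 were tested. Those that rose numbered 5, of which 4 were under 1 TPM in vehicle, 2 fell, and 6 did not pass the test. EPHB3, a receptor of ephrin-B ligands, was at 7.04, 8.36 and 6.54 TPM in vehicle against 71.5, 66.9 and 74.4 TPM in TSA, a 9.70-fold higher mean and a log2 fold change of 3.12 (SE 0.12, adjusted p 7.2e-06). In TSA it had the highest level of any Eph receptor, and its values lay far above those of vehicle. EPHA1 was at 0.0949, 0.101 and 0.0298 TPM in vehicle against 9.45, 10.8 and 10.5 TPM in TSA, which rests on 3, 3 and 1 reads in vehicle and 325, 382 and 353 in TSA, with a log2 fold change of 3.39 (SE 0.14, adjusted p 8.8e-06).

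EPHA2, a receptor abundant in many epithelial tumours, was at 0.0720, 0 and 0 TPM in vehicle against 4.90, 5.80 and 4.89 TPM in TSA, a log2 fold change of 2.59 (SE 0.14, adjusted p 2.0e-05). It had 1 read over the vehicle libraries and 236 over the TSA libraries, a ratio of 238 (42.3 to 9442) per read of depth (exact 95% interval, counting error only). EPHB6, a receptor without kinase activity, was at 0.0379 ± 0.0187 and 4.71 ± 0.315 TPM in vehicle and TSA and EPHA3 at 0.227 ± 0.108 and 4.93 ± 0.681 TPM, with log2 fold changes of 2.46 and 2.27. For all 4 of these receptors the TSA values lay above every vehicle value. Their test was open only through TSA, and the size of the change depends on the pseudocount.

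Of the 9 tested Eph receptors with a vehicle mean of at least 1 TPM, 1 (EPHB3) rose, 2 fell and 6 did not pass the test. EPHA7, the most abundant Eph receptor in vehicle, was at 61.99, 43.7 and 51.1 TPM in vehicle against 46.9, 36.3 and 34.7 TPM in TSA, with overlap between the groups and a log2 fold change of −0.40 (SE 0.17, adjusted p 0.078). That change passed the test with the replicate number as a block (adjusted p 0.0093), without vehicle replicate 2 (0.043), without TSA replicate 1 (0.024) and without both replicate 1 libraries (0.032). EPHB4, a receptor of EFNB2 best known from veins, was at 23.00, 26.1 and 24.4 TPM in vehicle against 8.42, 7.80 and 8.50 TPM in TSA, a log2 fold change of −1.46 (SE 0.11, adjusted p 5.6e-05). EPHA5 was at 5.95, 3.87 and 6.18 TPM in vehicle against 1.83, 1.28 and 1.38 TPM in TSA, a log2 fold change of −1.33 (SE 0.20, adjusted p 0.0013). No change passed the test for EPHB1, EPHB2, EPHA4, EPHA8 and EPHA10, whose levels were 17.4 ± 1.41 and 18.4 ± 0.348 TPM, 29.8 ± 3.02 and 25.7 ± 3.02 TPM, 22.7 ± 4.46 and 18.7 ± 4.35 TPM, 3.44 ± 0.401 and 4.31 ± 0.684 TPM and 6.98 ± 1.01 and 7.03 ± 0.397 TPM in vehicle and TSA, and their groups overlapped. EphB genes summed to 79.1 ± 5.20 TPM in vehicle and 128 ± 5.29 TPM in TSA, while EphA genes summed to 91.1 ± 13.9 and 91.4 ± 9.48 TPM.

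Semaphorins divided between rises and falls. Of the 7 secreted class 3 genes 5 were tested, and 2 rose and 2 fell; of the 13 membrane semaphorins 10 were tested, and 5 rose and 3 fell. SEMA3C, the semaphorin with the highest level in vehicle, was at 72.8, 65.2 and 135 TPM in vehicle against 75.6, 68.3 and 61.9 TPM in TSA. Vehicle library 3 stood apart, the groups overlapped, and the log2 fold change of −0.33 (SE 0.27, adjusted p 0.33) did not pass the test. SEMA3A, the classical repellent of sensory axons, was at 14.2, 10.5 and 12.04 TPM in vehicle against 3.85, 2.88 and 2.59 TPM in TSA, a log2 fold change of −1.69 (SE 0.18, adjusted p 2.5e-04). SEMA3F, which acts through NRP2, went the other way, at 3.66, 3.56 and 3.51 TPM in vehicle against 7.16, 9.17 and 9.92 TPM in TSA, a log2 fold change of 1.08 (SE 0.16, adjusted p 0.0010). SEMA3D was at 3.08 ± 0.688 and 0.990 ± 0.178 TPM in vehicle and TSA (log2 fold change −1.02), and SEMA3G at 0.0974 ± 0.0578 and 1.39 ± 0.224 TPM (1.12).

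Among membrane semaphorins SEMA4F rose most on the log2(TPM + 1) scale, at 1.76, 2.12 and 1.34 TPM in vehicle against 19.1, 15.9 and 15.9 TPM in TSA, a 9.76-fold higher mean and a log2 fold change of 2.72 (SE 0.17, adjusted p 2.8e-05). SEMA6C was at 6.59, 5.65 and 6.17 TPM in vehicle against 18.7, 15.96 and 18.4 TPM in TSA, a log2 fold change of 1.39 (SE 0.13, adjusted p 1.3e-04). Both had every TSA library above every vehicle library. SEMA4G was at 1.82, 1.67 and 2.72 TPM in vehicle against 9.41, 8.50 and 8.58 TPM in TSA (log2 fold change 1.69), and 22.3% of its exon bases are shared on the opposite strand with MRPL43, whose reads cannot be told apart from its own if strand was not used in counting. SEMA6B was at 1.15, 1.55 and 1.44 TPM in vehicle against 3.95, 5.64 and 6.23 TPM in TSA (log2 fold change 1.38). SEMA7A, which is anchored in the membrane by a lipid, was at 0.364 ± 0.145 and 3.70 ± 0.479 TPM in vehicle and TSA, a 10.2-fold higher mean, and entered the test through its TSA values.

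The membrane semaphorins that fell were SEMA6D, SEMA4C and SEMA4D. SEMA6D was at 9.99, 6.38 and 8.51 TPM in vehicle against 2.36, 1.28 and 1.11 TPM in TSA, a log2 fold change of −1.86 (SE 0.24, adjusted p 6.4e-04). SEMA4C, a ligand of PLXNB2, was at 9.05, 7.89 and 9.13 TPM in vehicle against 2.19, 1.35 and 1.79 TPM in TSA, a log2 fold change of −1.81 (SE 0.17, adjusted p 1.4e-04). SEMA4D, the ligand of PLXNB1, was at 11.1 ± 1.02 and 6.03 ± 1.25 TPM in vehicle and TSA, with no overlap and a log2 fold change of −0.79 (SE 0.17, adjusted p 0.0058). SEMA6A, the membrane semaphorin with the highest level, was at 40.3, 28.3 and 50.8 TPM in vehicle against 41.1, 26.7 and 27.5 TPM in TSA, with overlapping groups and no call, log2 fold change −0.31 (SE 0.25, adjusted p 0.33). SEMA4B was at 6.44 ± 1.25 and 4.46 ± 0.331 TPM without overlap, but its adjusted p was 0.057, and 0.040 to 0.17 over its 19 alternatives.

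**Figure D3:**
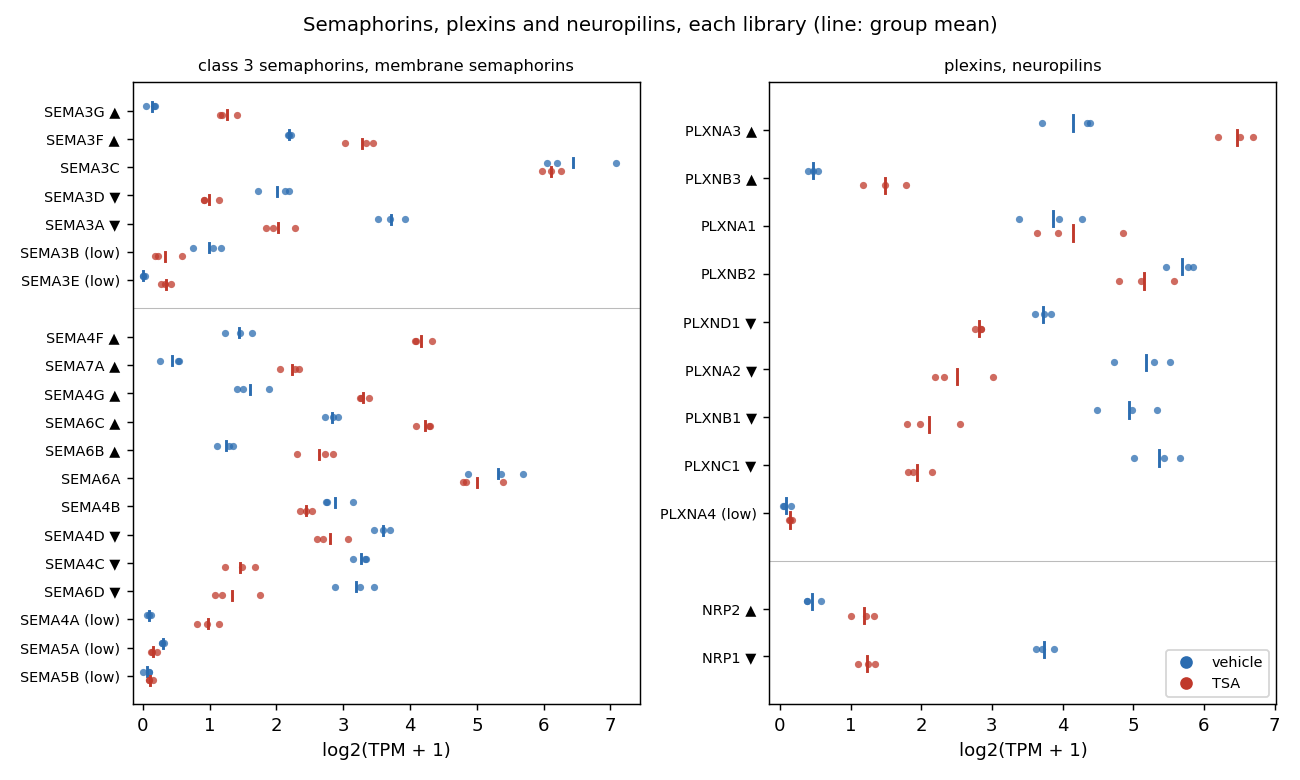
Level of each semaphorin (left) and each plexin and neuropilin (right) in each library as log2(TPM + 1), drawn as for the ephrins, with vehicle in blue and TSA in red. PLXNC1, PLXNB1, PLXNA2 and NRP1 lie to the left in TSA with no overlap, PLXNA3 and SEMA4F to the right, and PLXNA1 shows 1 TSA library apart from the other two.

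Plexins, the semaphorin receptors, included the member with the greatest fall, PLXNC1. Of 8 tested plexin genes 4 fell, 2 rose and 2 did not pass the test, with a median log2 fold change of −0.72. PLXNC1, the receptor of SEMA7A, was at 42.3, 31.2 and 49.7 TPM in vehicle against 3.44, 2.51 and 2.67 TPM in TSA, a 14.3-fold lower mean and a log2 fold change of −3.42 (SE 0.20, adjusted p 2.4e-05). PLXNB1, the receptor of SEMA4D, was at 39.5, 21.5 and 30.6 TPM in vehicle against 4.88, 2.48 and 2.97 TPM in TSA, a log2 fold change of −2.82 (SE 0.28, adjusted p 1.9e-04). PLXNA2 was at 45.1, 25.6 and 38.3 TPM in vehicle against 7.07, 3.58 and 4.00 TPM in TSA, a log2 fold change of −2.68 (SE 0.29, adjusted p 2.6e-04). In all 3 genes vehicle library 2 was the lowest of its group and TSA library 1 the highest of its group, as over long transcripts in general, and the groups still lay far apart.

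PLXNA3, a partner of neuropilins for secreted semaphorins, was the plexin that rose most, at 19.8, 12.1 and 19.3 TPM in vehicle against 103, 72.2 and 90.6 TPM in TSA, a log2 fold change of 2.33 (SE 0.22, adjusted p 1.5e-04). In TSA it was the most abundant receptor of the whole set by its mean, with ROBO1 next, and the ranges of these genes overlapped. PLXND1 was at 12.3 ± 1.08 and 6.03 ± 0.235 TPM in vehicle and TSA (log2 fold change −0.91), and PLXNB3 at 0.382 ± 0.0716 and 1.83 ± 0.587 TPM (1.02), with 20.4% of its exon bases shared on the same strand with SRPK3. PLXNB2 was at 56.6, 43.2 and 53.5 TPM in vehicle against 46.7, 26.8 and 33.4 TPM in TSA, with overlap and no call, log2 fold change −0.53 (SE 0.21, adjusted p 0.065). Without TSA replicate 1 it passed the test (log2 fold change −0.74, adjusted p 0.0073), as it did with the replicate block (0.0061) and without both replicate 1 libraries (0.018). PLXNA1 was at 18.3, 9.41 and 14.5 TPM in vehicle against 28.01, 11.4 and 14.3 TPM in TSA, and its log2 fold change of 0.28 turned to −0.08 without TSA replicate 1, neither passing the test, while it passed with length trends removed (0.75, adjusted p 0.010).

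The neuropilins moved in opposite directions. NRP1, a co-receptor of SEMA3A and of vascular endothelial growth factor, was at 12.1, 11.3 and 13.7 TPM in vehicle against 1.54, 1.15 and 1.36 TPM in TSA, a 9.15-fold lower mean and a log2 fold change of −2.51 (SE 0.15, adjusted p 2.5e-05). NRP2 was at 0.369 ± 0.114 and 1.28 ± 0.261 TPM in vehicle and TSA, with no overlap and a log2 fold change of 0.74 (SE 0.16, adjusted p 0.0061), and was tested only through its TSA values. The level of NRP1 in TSA was close to that of NRP2.

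The tested slits and ROBO receptors were lower except for ROBO3. SLIT1 was at 19.05, 13.9 and 18.1 TPM in vehicle against 2.28, 1.38 and 2.14 TPM in TSA, a log2 fold change of −2.62 (SE 0.19, adjusted p 5.6e-05). Of its exon bases 2.37% are shared on the same strand with a readthrough model, ARHGAP19-SLIT1, which was at 19.8 and 4.63 TPM in vehicle and TSA. SLIT2 was at 28.3, 19.3 and 29.9 TPM in vehicle against 21.1, 14.1 and 13.6 TPM in TSA, with overlap between the groups and a log2 fold change of −0.64 (SE 0.23, adjusted p 0.046). That call was lost under 10 of 19 alternatives, with adjusted p from 0.012 to 0.15 over all 19, among them a test of recovered reads (0.059) and the omission of vehicle replicate 1 (0.13), vehicle replicate 3 (0.15), TSA replicate 2 (0.13) or TSA replicate 3 (0.14). SLIT3 was under the filter in both groups.

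ROBO1 was at 189, 143 and 209 TPM in vehicle against 109.5, 73.00 and 74.03 TPM in TSA, with the lowest vehicle value above the highest TSA value and a log2 fold change of −1.07 (SE 0.21, adjusted p 0.0039). ROBO2, which lies next to ROBO1 on chromosome 3, was at 8.26, 8.64 and 9.78 TPM in vehicle against 2.21, 1.64 and 1.54 TPM in TSA, a log2 fold change of −1.83 (SE 0.16, adjusted p 1.1e-04). ROBO3, known for its part in the crossing of the midline by axons, was at 0.286 ± 0.147 and 2.27 ± 1.04 TPM in vehicle and TSA and was tested through its TSA values (log2 fold change 1.30). ROBO receptors summed to 189 ± 34.4 TPM in vehicle and 89.6 ± 22.1 TPM in TSA, nearly all of it ROBO1, and slits to 42.9 ± 8.35 and 18.3 ± 4.54 TPM. No row of the deposited expression table carried the symbol ROBO4, so that gene was not analysed here.

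Netrin ligands were scarce and their receptors were not. NTN1, the netrin with the highest level, was at 3.33, 2.70 and 3.69 TPM in vehicle against 3.28, 3.52 and 4.02 TPM in TSA, with overlap and no call, log2 fold change 0.12 (SE 0.16, adjusted p 0.53), and NTN3, NTN4 and NTN5 were under the filter. DCC, the receptor through which netrin-1 attracts axons, was at 36.1, 17.9 and 44.9 TPM in vehicle against 7.85, 3.72 and 3.72 TPM in TSA, a 6.47-fold lower mean and a log2 fold change of −2.45 (SE 0.39, adjusted p 0.0016). UNC5A, a receptor for repulsion, was at 38.4, 35.7 and 46.6 TPM in vehicle against 13.1, 12.9 and 17.2 TPM in TSA, a log2 fold change of −1.42 (SE 0.16, adjusted p 2.9e-04). UNC5D rose, at 1.63, 0.971 and 1.01 TPM in vehicle against 7.52, 4.56 and 4.17 TPM in TSA, a log2 fold change of 1.52 (SE 0.24, adjusted p 0.0016), with TSA library 1 the highest. UNC5B was at 38.5, 25.3 and 30.7 TPM in vehicle against 33.8, 23.1 and 26.4 TPM in TSA, with overlap, no call and a log2 fold change of −0.17 (SE 0.20, adjusted p 0.48) that turned positive with quantile scaling (0.006497 on the log2 scale) and with length trends removed (0.16). Netrin receptors summed to 106 ± 22.9 TPM in vehicle and 52.7 ± 9.07 TPM in TSA.

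**Figure D4:**
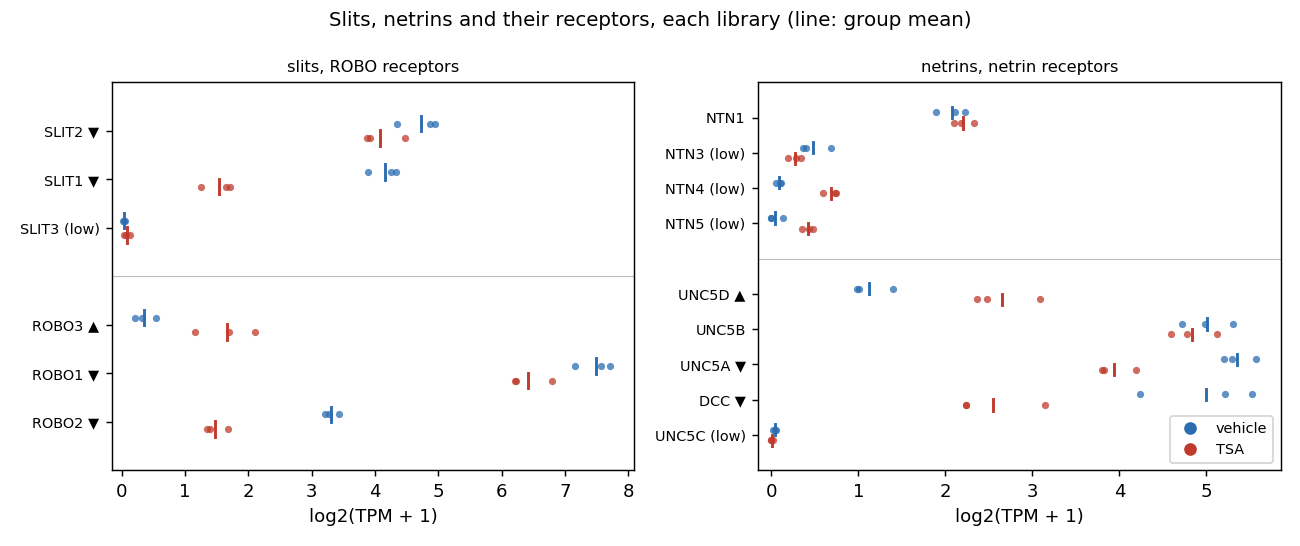
Level of slits and ROBO receptors (left) and of netrins and netrin receptors (right) in each library as log2(TPM + 1), drawn as for the ephrins, with vehicle in blue and TSA in red. ROBO1, ROBO2, SLIT1, DCC and UNC5A lie to the left in TSA without overlap, while UNC5D and ROBO3 lie to the right.

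The order of levels changed with TSA. In vehicle the highest means were those of ROBO1, SEMA3C, EFNB2, EPHA7 and PLXNB2, at 180.2, 90.9, 72.3, 52.3 and 51.1 TPM. In TSA, leaving the second EFNA3 row aside, they were those of EFNA3, PLXNA3, EFNB2, ROBO1 and EFNB3, at 118, 88.5, 85.99, 85.5 and 77.2 TPM. In vehicle ROBO1 lay above the other 4 in every library, while SEMA3C overlapped EFNB2 and EPHA7 overlapped PLXNB2. In TSA EFNA3 was above the other 4 except in library 1, where ROBO1 was higher.

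**Figure D5:**
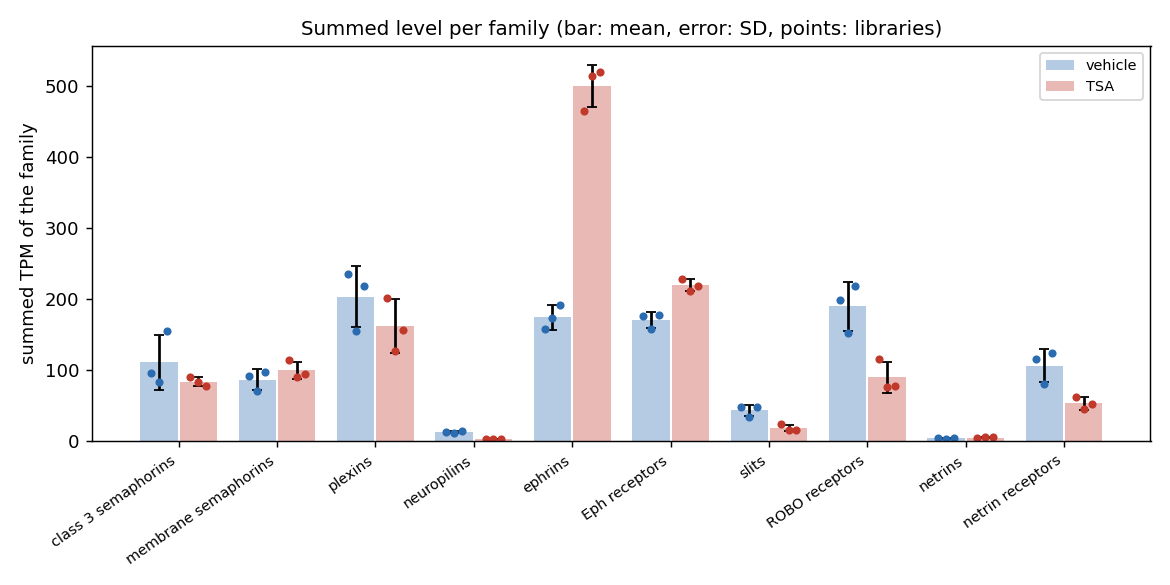
Summed TPM of each family in vehicle (blue) and TSA (red), with bars for the mean, error bars for the SD over 3 libraries and points for the libraries. Ephrins went from 174 to 499.5 TPM (the readthrough row included), while slits, ROBO receptors, neuropilins and netrin receptors were lower in every TSA library than in any vehicle library.

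Other genes of the pathway, a list of 62 co-receptors, other cues and intracellular effectors, were lower more often than higher. Of 61 tested 9 were higher and 30 lower and 22 did not pass the test, against 28.0% and 34.2% of all tested genes, with a median log2 fold change of −0.49. Of the 9 higher genes 2, ABLIM3 and NTNG2, had a vehicle mean under 1 TPM. They entered the test through their TSA libraries, a filter that favours a rise. Among the greatest rises at 5 TPM or more were those of the actin-binding gene ABLIM3 from 0.0273 ± 0.0103 to 5.36 ± 0.289 TPM, DPYSL4, of the collapsin response mediator proteins that act below semaphorins, from 14.3 ± 1.28 to 57.8 ± 6.14 TPM, and the adaptor gene DOK1 from 1.14 ± 0.282 to 7.07 ± 0.579 TPM. The greatest falls were those of DSCAM, an adhesion molecule and netrin receptor, from 21.5 ± 5.91 to 1.11 ± 0.451 TPM, CHN2 from 50.02 ± 3.42 to 3.94 ± 0.305 TPM, FLRT2, a ligand of UNC5 receptors, from 30.6 ± 6.72 to 2.21 ± 0.427 TPM, and CRMP1, a relative of DPYSL4, from 194 ± 12.3 to 37.97 ± 1.42 TPM. All 7 showed no overlap between the groups, with log2 fold changes of 2.63, 1.94 and 1.92 for the rises and −3.40, −3.37, −3.28 and −2.32 for the falls. The count of higher genes came to 14 with quantile scaling, with the test of recovered reads and with length trends removed.

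Annotated transcript length differed between the members that rose and those that fell. The median length of the longest GENCODE 29 transcript was 4322.5 nt for the 22 that rose and 6742 nt for the 20 that fell, against 2969 nt over the tested genes that have one in that annotation. The difference was not tested, and the 22 include the EFNA3 readthrough row, at 1042 nt. Families also differ in length, with medians of 1926 nt over the tested ephrin rows and 7327 nt over the tested plexins. With length trends removed from each library, 24 members were higher and 19 lower.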

How the data were processed

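RNA of 6 libraries (3 vehicle, 3 TSA) was sequenced. Per the submitters' processing notes, STAR 2.5.3a, featureCounts, edgeR, FastQC 0.11.2, Picard 1.127 and hg19 were used, in roles they do not give. The deposited table's name gives GENCODE 19 as its annotation. Whether counting used strand is not stated in the labels. Levels are TPM as the authors deposited them. The authors' deposited table gives, per the file headers, a log2 fold change, a likelihood ratio score, and a p-value and FDR for each gene.

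Genes reaching 1 TPM in 3 or more libraries were tested with limma 3.58.1 (R 4.3.3) on log2(TPM + 1), without a replicate block and with a trended variance, Benjamini-Hochberg adjusted over 17596 genes at a threshold of 0.05. Fold changes on that scale understate those of low genes. The script was tested on simulated data. Libraries within a group differed by more than counting noise.

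Ratios of a gene's TPM between libraries were ratios of whole numbers (relative tolerance 1e-08) in 100% of 27644 genes, those with a value above 0 in 2 or more libraries. The reads given are the smallest whole numbers with those ratios, so they are lower bounds. Their intervals cover counting error only.

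The members and lists were chosen with earlier results of these data known. Per-library values were printed for called members with at least 2-fold change and 5 TPM in the higher group and for the highest member of each family, and some others were added beside them after their values were seen. Of the other pathway genes the 4 greatest rises and the 4 greatest falls at 5 TPM or more were to be named, of which the greatest rise is not reported here. Alternatives were other pseudocounts, filters, scalings, variance models, recovered reads, removal of length trends, a replicate block and leaving out libraries. One more, without mitochondrial genes, was chosen after seeing the data. Lengths and exon overlaps came from GENCODE 29, with lengths for 94.8% of genes in the table.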

Additional observations from a re-analysis of the deposited data

How the results depend on the processing

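Each of the 42 called members kept its direction under every alternative in which it was tested, and SLIT2 was the one that lost its call (under 10 of 19). With libraries left out one at a time, 22 to 23 members were higher and 19 to 22 lower, and 1 to 2 slits were lower, with 1 when the library omitted was vehicle replicate 1, vehicle replicate 3, TSA replicate 2 or TSA replicate 3. Slits called lower came to 1 also with no filter, quantile scaling, limma without trend, recovered reads, length trends removed and without mitochondrial genes. With a filter of 5 TPM, under which fewer genes are tested, 12 members were higher: 5 ephrins, 1 class 3 semaphorin (and 1 lower), 3 membrane semaphorins, 1 plexin, 0 neuropilins, 2 Eph receptors (and 1 lower), 0 ROBO receptors and 0 netrin receptors. With no filter 2 netrins were higher. Other pathway genes called higher came to 14 with quantile scaling, recovered reads and length trends removed, where the cause was not tested. Members at 5 TPM or more in every library numbered 38 in vehicle and 30 in TSA, the reverse of the order at 1 TPM. Log2 fold changes that changed sign all belonged to members without a call: EPHB2 0.31, EPHA4 0.0246, SEMA6A 0.0324 and UNC5B 0.16 with length trends removed, UNC5B 0.006497 with quantile scaling, EPHA10 −0.0829 without vehicle replicate 2 and −0.0224 without TSA replicate 3, and PLXNA1 −0.0825 without TSA replicate 1 (up to 0.53 without another library). Median-of-ratios scaling, quantile scaling, recovered reads and length trends removed raised the median of all genes by 0.10, 0.10, 0.12 and 0.11 on the log2 scale. Whether the replicate numbers pair the libraries cannot be told. Deviations of same-numbered libraries correlated at 0.63, 0.59 and −0.073 for replicates 1, 2 and 3, and those of libraries with unlike numbers at −0.64 to 0.38. With the number as a replicate block 22 members were higher and 23 lower, and 13 and 31 of the other pathway genes. Counts of 1 to 3 reads limit what can be said of the lowest members.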

Other observations

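The 12 members under the filter were SEMA3B, SEMA3E, SEMA4A, SEMA5A, SEMA5B, PLXNA4, EPHA6, SLIT3, NTN3, NTN4, NTN5 and UNC5C, and all had group means of about 1 TPM or less. SEMA4A, a membrane semaphorin, was at 0.0673, 0.0477 and 0.0846 TPM in vehicle against 1.22, 0.763 and 0.952 TPM in TSA, and NTN4, a netrin of basement membranes, at 0.0719, 0.0764 and 0.0339 TPM in vehicle against 0.661, 0.676 and 0.508 TPM in TSA, with no overlap between the groups in either. SEMA3B, a secreted semaphorin, was at 1.25, 0.690 and 1.08 TPM in vehicle against 0.501, 0.140 and 0.171 TPM in TSA, with all vehicle values above those of TSA. SEMA3E, the ligand of PLXND1, had 1 recovered read in vehicle and 40 in TSA, a ratio of 40.3 (6.84 to 1633) per read of depth (exact 95% interval, counting error only). EPHA6 had 1 and 30 reads, a ratio of 30.3 (5.03 to 1235), and NTN5 had 2 and 23 reads, a ratio of 11.6 (2.87 to 102).

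In the authors' deposited table, member rows higher in TSA at an FDR under 0.05 numbered 27 and those lower 21, against 41.3% of all genes in that table. That share covers both directions and was taken without the 1 TPM filter used here, so it is not like the shares given above. The authors' deposited table gives the same direction and an FDR under 0.05 for all 42 members called here. It also calls 5 members under the filter higher and 1 lower, and 0 of the 15 tested members that were not called here. Both analyses use the same libraries.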
